A study of Mus musculus with 2 samples.

Results

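The metallothionein genes Mt1, Mt2 and Mt3 were examined in mouse brain RNA before and after enrichment of synaptosomes, the resealed nerve endings and attached membranes that form when brain tissue is broken up. The 3 genes were chosen by name, with no threshold on their values but with earlier results of these data known, and were 3 of the 23329 genes in the deposited files. Each was represented by 1 transcript, and all 3 averaged at least 1 CPM (a count scaled to the library total) over both libraries, as did 14153 genes in all. Both libraries came from C57BL/6 mice of wild-type genotype, and the tissue was labelled whole brain. Both sample titles also carry the tag CT10, whose meaning is not taken up here. One library was made from total homogenate. The other was made from the material collected between 3% and 10% Percoll on a density gradient, after nuclei had been spun out. No source used here gives the number, age or sex of the animals. The series title names the search for mRNAs enriched at synapses as its purpose.

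Metallothioneins are small cytosolic proteins in which cysteines bind zinc and copper in clusters. They buffer free zinc, bind toxic metals such as cadmium, and react with oxidants. Mt1 and Mt2 are induced in many tissues by metals, through the zinc-sensing transcription factor Mtf1, and by glucocorticoids, and in brain they are made mainly by astrocytes. Mt3 is the form typical of the central nervous system, first described as a growth inhibitory factor, and has been found in astrocytes and in neurons. Mt4 belongs to stratified squamous epithelia.

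The coding sequences show what the 3 mRNAs share and where they differ. They are taken from the GENCODE M21 transcripts on GRCm38, spliced over 3 coding exons on the plus strand of chromosome 8 (Mt1 chr8:94179311-94180193, Mt2 chr8:94172848-94173427, Mt3 chr8:94152800-94154010). Each codon for cysteine, TGC or TGT, is in capitals.
Mt1 coding sequence: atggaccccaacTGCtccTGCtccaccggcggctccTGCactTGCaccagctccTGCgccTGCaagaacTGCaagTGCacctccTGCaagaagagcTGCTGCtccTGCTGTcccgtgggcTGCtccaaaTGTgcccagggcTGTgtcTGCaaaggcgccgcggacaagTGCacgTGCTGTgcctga
Mt2 coding sequence: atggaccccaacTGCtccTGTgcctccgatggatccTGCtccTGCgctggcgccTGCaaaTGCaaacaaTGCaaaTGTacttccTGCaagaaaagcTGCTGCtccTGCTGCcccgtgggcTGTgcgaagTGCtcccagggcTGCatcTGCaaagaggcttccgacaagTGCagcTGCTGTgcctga
Mt3 coding sequence: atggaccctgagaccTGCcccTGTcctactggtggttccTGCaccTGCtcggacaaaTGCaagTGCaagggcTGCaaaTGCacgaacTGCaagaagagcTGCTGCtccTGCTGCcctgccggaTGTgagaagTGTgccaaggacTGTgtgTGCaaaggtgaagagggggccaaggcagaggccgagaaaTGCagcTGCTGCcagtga

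Each of the 3 sequences held 20 cysteine codons, 16 of them TGC and 4 of them TGT. They made up 32.8% of the 61 codons of Mt1 and of Mt2 (stop codon left out) and 29.4% of the 68 codons of Mt3, which is longer. Mt1 and Mt2 were identical at 148 of 186 aligned bases (79.6%). Mt3 was identical to Mt1 at 65.2% and to Mt2 at 67.6% of 207 aligned columns, gaps included. The longest exact stretch shared by whole transcripts was 20 bases for Mt1 and Mt2, 27 for Mt1 and Mt3 and 20 for Mt2 and Mt3. Reads were 100 bases long, per the labels' protocols, and 0 of 450, 412 and 437 windows of 100 bases in Mt1, Mt2 and Mt3 occurred on the same strand in a GENCODE M21 transcript of another gene. On the opposite strand, 113 of 412 windows of Mt2 (27.4%) lay in Gm45774, an antisense gene that overlaps Mt2. The library kit keeps strand, but no source used here says whether the counting used it, so a part of the Mt2 count from Gm45774 was not tested. Mt1 and Mt3 overlapped no other annotated gene.

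All 3 metallothionein mRNAs were higher in the synaptosome fraction than in the homogenate, by about the same factor, and they kept their order of level. Mt1 was 4.14-fold higher, Mt2 3.92-fold and Mt3 3.80-fold. There was 1 library of each kind, so no value has a replicate and no test between the fractions was possible. Each ratio compares these libraries and not the fractions in general. Intervals are exact 95% Clopper-Pearson intervals for counting error, which PCR copies can make too narrow. Ratios were scaled by TMM, which sets the typical gene near a ratio of 1, and the words higher and lower, where genes are counted, mean a difference of 2-fold or more whose interval did not reach a ratio of 1.

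Mt1 (chromosome 8, 94179089 to 94180327, mm10, plus strand) had 2496 counts in homogenate RNA and 6620 after enrichment. Its level per transcript length was 874 TPM (a count scaled by transcript length and library) in homogenate RNA and 2492 TPM after enrichment. The count ratio was 4.14-fold (3.95 to 4.34). By TPM, Mt1 was the gene of rank 125 in homogenate RNA and of rank 34 after enrichment.

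Mt3 (chromosome 8, 94152607 to 94154148) had 1884 counts in homogenate RNA and 4581 after enrichment. It stood at 666 TPM and 1740 TPM, the second of the family in both libraries, and at ranks 214 and 61 among all genes. Its ratio was 3.80-fold (3.60 to 4.01). Its deposited counts, 1884.21 and 4580.57, were not whole numbers, whereas those of Mt1 and Mt2 were.

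Mt2 (chromosome 8, 94172618 to 94173567) had 1217 counts in homogenate RNA and 3059 after enrichment. Its levels of 413 TPM and 1116 TPM were the lowest of the 3, at ranks 393 and 120. Its ratio was 3.92-fold (3.67 to 4.20).

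Mt4 (chromosome 8, 94137204 to 94139031) had 0 counts in both libraries. A count of 0 allows up to 3 counts, or 0.197 CPM in homogenate RNA and 0.219 CPM after enrichment. No ratio can be given for it.

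**Figure D1:**
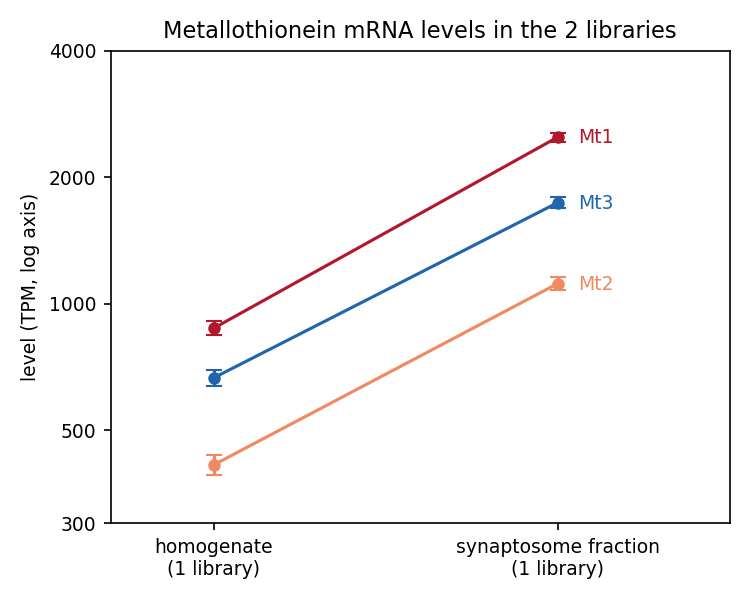
Level of Mt1, Mt2 and Mt3 in TPM (log axis) in the homogenate and the synaptosome library; points are single libraries and bars are exact 95% Poisson counting intervals. The 3 lines run nearly parallel, from 413 to 874 TPM in homogenate RNA and from 1116 to 2492 TPM after enrichment.

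Together the 3 genes had 5597 counts (0.0368% of all counts) in homogenate RNA and 14260 (0.104%) after enrichment, and summed TPM of 1953 and 5348. The summed count was 3.98-fold higher in the synaptosome fraction (3.86 to 4.10). The make-up of that sum moved little. Mt1 gave 44.8% of the summed TPM in homogenate RNA and 46.6% after enrichment, Mt3 34.1% and 32.5%, and Mt2 21.2% and 20.9%. In the homogenate, the level of Mt1 in TPM was 1.31 times that of Mt3 (1.24 to 1.39) and 2.12 times that of Mt2 (1.97 to 2.27). In the synaptosome fraction the same ratios of levels were 1.43 (1.38 to 1.49) and 2.23 (2.14 to 2.33). The order Mt1, Mt3, Mt2 was thus separated beyond counting error at every step in both libraries.

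Differences in ratio between the 3 genes were small, and scaling cancels out of them. The log2 ratio of Mt1 exceeded that of Mt3 by 0.13, with an exact conditional interval of 0.02 to 0.23. Between Mt1 and Mt2 the difference was 0.08 (-0.04 to 0.20), and between Mt2 and Mt3 it was 0.05 (-0.08 to 0.17). Mt1 was therefore separated from Mt3 by more than counting error, and the other pairs were not. These intervals do not show that the ratios are alike, and they allow a difference of up to 1.14-fold between Mt1 and Mt2 and of up to 1.13-fold between Mt2 and Mt3.

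The synaptosome library as a whole had 13709528 counts and the homogenate library 15210838, with at least 1 count for 71.9% and 74.8% of genes. Of the 14153 genes measured, 1807 (12.8%) were higher after enrichment by 2-fold or more and 1288 (9.1%) lower by that much. All 3 metallothioneins were in the first group. With library totals in place of TMM every log2 ratio moved by -0.49, 636 genes were higher and 3629 lower, and all 3 metallothioneins were still at least 2-fold higher. That held under each of 6 scalings, where the log2 ratio of Mt1 ranged from 1.51 to 2.08, that of Mt2 from 1.43 to 2.00 and that of Mt3 from 1.39 to 1.95.

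**Figure D2:**
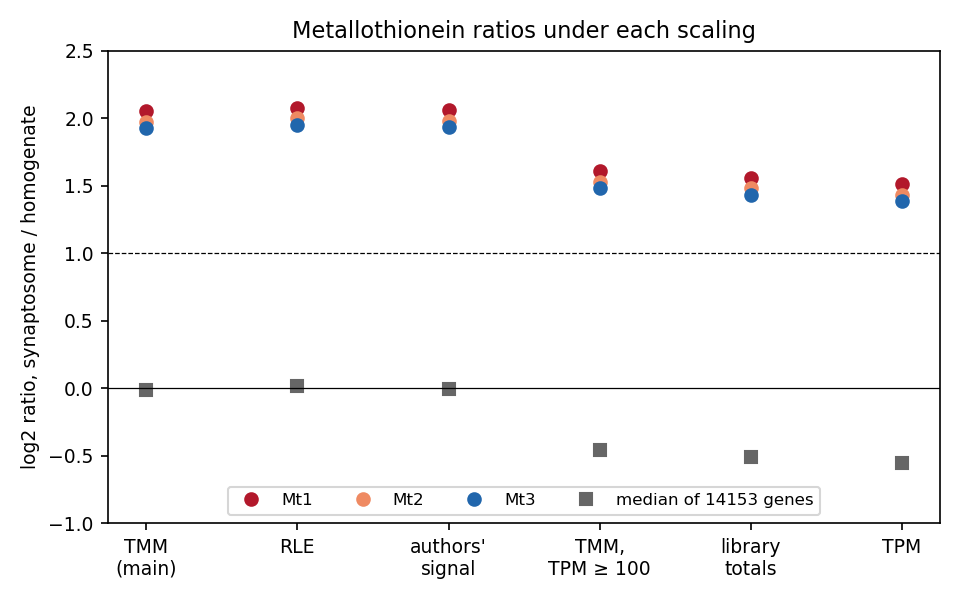
Log2 ratio, synaptosome fraction over homogenate, of Mt1, Mt2 and Mt3 (circles) under 6 scalings, with the median of 14153 genes (squares) and a dashed line at 2-fold. The 3 genes lie above the line under each scaling, from 1.39 for Mt3 with TPM to 2.08 for Mt1 with the median-of-ratios factors (RLE).

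The metallothionein mRNAs are short and abundant, and both short and abundant genes had higher median ratios than all genes. The deposited transcripts of Mt1, Mt2 and Mt3 were 542, 556 and 538 bases long. Among 344 genes whose longest transcript was under 700 bases, 29.1% were higher by 2-fold or more and the median log2 ratio was 0.36, against -0.01 over all genes. Among the 319 genes that averaged 500 TPM or more, 49.8% were at least 2-fold higher, and the median was 1.00. The log2 ratios of Mt1, Mt2 and Mt3 were 2.05, 1.97 and 1.92. They held places 23, 27 and 31 among those 319 abundant genes, and places 144, 184 and 216 among all 14153. Of the genes whose mean TPM was within 2-fold of its own, 11 of 146 had a higher ratio than Mt1, 23 of 366 a higher one than Mt2 and 17 of 226 a higher one than Mt3. The part of length and level in the ratios was not tested.

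**Figure D3:**
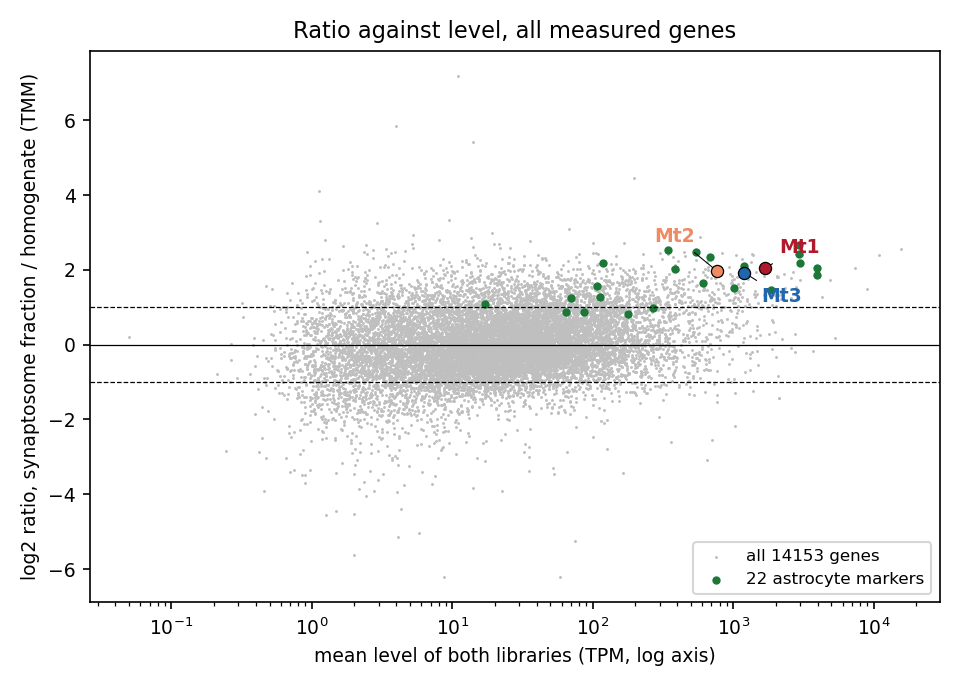
Log2 ratio, synaptosome fraction over homogenate, against the mean level of both libraries in TPM (log axis) for 14153 genes (grey), 22 astrocyte markers (green) and the metallothioneins (labelled); dashed lines mark 2-fold. Mt1, Mt2 and Mt3 lie at 1.92 to 2.05 near the right edge of the cloud, among the more abundant astrocyte markers.

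Astrocyte mRNAs moved with the metallothioneins. Of 22 astrocyte markers, 18 were higher by the 2-fold rule and 0 lower, against 12.8% and 9.1% of all genes. The log2 ratios of the markers had a median of 1.76 and a range of 0.82 to 2.66. Their summed level was 12702 TPM in homogenate RNA and 36117 TPM after enrichment, and none was at 0. Ndrg2, an abundant astrocyte protein, was the highest at 6.33-fold (6.22 to 6.45), and Gja1, which forms astrocyte gap junctions, the lowest at 1.77-fold (1.68 to 1.86). The ratio of Mt1 was above that of 12 markers and below that of 7 by more than counting error. It was not separated from Slc1a2, the main glutamate transporter of astrocytes (4.33-fold), Apoe, a lipid carrier (4.18-fold), or Mlc1, a membrane protein of astrocyte endfeet (4.09-fold). Mt2 was above 12 and below 8, and not separated from Apoe and Mlc1. Mt3 was above 11 and below 10, and not separated from Sparcl1, a secreted matrix protein (3.66-fold). The part of astrocyte RNA in the metallothionein ratios was not tested. In bulk RNA, how much material of a cell type a fraction holds cannot be told apart from mRNA levels within that material.

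Neuronal markers moved in both directions and not as a group. Of 20, 4 were at least 2-fold higher and 5 lower, and the median log2 ratio was -0.28. Both were larger shares than among the 14153 genes measured, where 12.8% went up and 9.1% down by this rule. All 3 metallothioneins had a higher ratio than 19 of the 20. The exception was Grin1, the obligatory NMDA receptor subunit (3.87-fold, 3.76 to 3.97). Grin1 lay between Mt2 and Mt3, and its interval overlapped those of all 3 metallothioneins. Such an overlap does not show that the ratios are alike, and the differences between them were not examined. Summed neuronal levels were 14439 TPM in homogenate RNA and 13570 TPM after enrichment. These sums are not on the TMM scale of the ratios. With TPM the median log2 ratio over all genes was -0.55, against -0.01 with TMM. Snap25, a fusion protein of nerve endings, was 2.67-fold lower (2.62 to 2.73), and the vesicle protein gene Syp stood at 2.74-fold (2.70 to 2.78).

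Other cell types of the brain differed from the metallothioneins to varying degrees. Of 15 microglial markers 6 were higher and 0 lower (median 0.85), against 12.8% and 9.1% of all genes. Tyrobp, a microglial adaptor, was the one microglial marker above the metallothioneins at 4.50-fold (3.75 to 5.42). That interval overlapped those of all 3, and the differences in ratio were not examined. Among 15 oligodendrocyte and myelin markers 3 were higher and 0 lower (median 0.09), with Mbp, myelin basic protein, at 5.31-fold. Of 15 endothelial markers 0 were higher and 12 lower (median -2.82). All 6 blood genes measured were lower, and the median was -2.84 when Hba-a2, which had 0 counts in the synaptosome fraction, is set to its floor of 3 counts. Pericyte and fibroblast markers (12 measured, 2 higher, 4 lower, median 0.05) and choroid plexus and ependymal markers (12 measured, 0 higher, 3 lower, median -0.34) all lay below Mt3. So did 98.5% of all measured genes. Nuclear noncoding RNAs, 9 measured, had 0 higher and 6 lower.

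**Figure D4:**
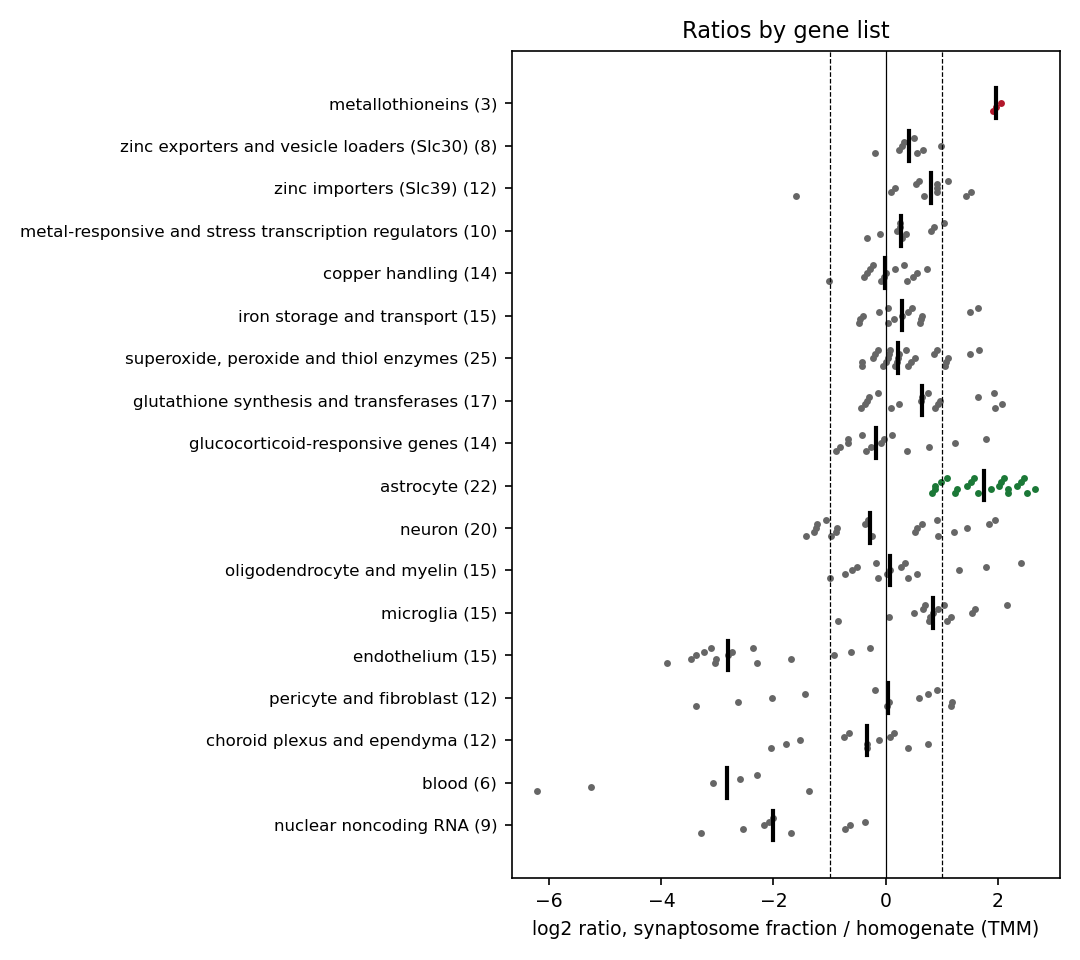
Log2 ratio, synaptosome fraction over homogenate, of each measured gene in 18 lists (number measured in parentheses); black bars are medians and dashed lines mark 2-fold, and Hba-a2, at 0 counts in the synaptosome fraction, is drawn at its floor in the blood list. The metallothioneins (red) lie at 1.92 to 2.05, within the range of the astrocyte markers (green, 0.82 to 2.66).

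The genes that regulate metallothionein transcription had ratios nearer to the typical gene. Mtf1, which binds metal response elements when zinc rises, had 505 counts in homogenate RNA and 385 after enrichment, a ratio of 1.19-fold (1.04 to 1.36). Its log2 ratio of 0.25 became -0.24 under library totals. Nr3c1, the glucocorticoid receptor, was at 1.19-fold. Of 10 metal-responsive and stress regulators 1 was higher and 0 were lower, against 12.8% and 9.1% of all genes, and the median was 0.28. The 1 was Usf2, an E-box factor, at 2.06-fold (1.92 to 2.21), while its relative Usf1 was 1.25-fold lower. Genes that glucocorticoids induce had a median of -0.17, and 2 of 14 were higher and 0 lower. Pdk4, a mitochondrial kinase, was the highest at 3.46-fold (2.91 to 4.12). Fkbp5, a chaperone that responds to glucocorticoids in many tissues, had 577 and 351 counts, a ratio of 0.950 (0.829 to 1.09), and Dusp1, a phosphatase, was 1.84-fold lower (1.56 to 2.18).

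Zinc transporters had lower ratios than the zinc-binding metallothioneins. Slc30 proteins carry zinc out of the cytosol. Of 8 measured, 0 were higher and 0 lower, and the median of 0.41 was -0.08 under library totals. Slc30a1, the plasma membrane exporter that Mtf1 also induces, was just under the threshold at 1.98-fold (1.75 to 2.25). Slc30a3, which loads zinc into synaptic vesicles of glutamatergic neurons, had 1308 counts in homogenate RNA and 1338 after enrichment, or 107 and 118 TPM, and a ratio of 1.60-fold (1.48 to 1.73). Slc30a9 was the most abundant at 1.42-fold, Slc30a10, a manganese exporter, was at 1.25-fold, and Slc30a7 was the lowest at 1.14-fold lower.

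Slc39 proteins carry zinc into the cytosol. Of 12 measured, 3 were higher and 1 lower, and the median was 0.80. For scale, the 2-fold rule picked 12.8% of the 14153 measured genes upward and 9.1% downward. Of the 12, Slc39a12 was the highest, with 965 and 1778 counts, 58.4 and 116 TPM and a ratio of 2.88-fold (2.66 to 3.11). Slc39a6 and Slc39a1 were at 2.72-fold and 2.17-fold. Slc39a14, which also carries manganese and iron, was at 1.89-fold (1.70 to 2.10) and Slc39a10 at 1.62-fold. The abundant Slc39a7, an exit route for zinc from the endoplasmic reticulum, was at 1.46-fold. Slc39a2 was 3.03-fold lower, with 156 and 33 counts. All 20 measured transporters of both families had lower ratios than Mt1, Mt2 and Mt3, as did 98.5% of all measured genes.

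Copper genes, whose products hand on or carry the other metal that metallothioneins bind, were spread around the typical gene. Of 14, 0 were higher and 1 lower, and the median was -0.01. Slc31a2, a copper transporter, was 2.01-fold lower (1.52 to 2.68). The copper chaperone Atox1 was at 1.31-fold, and Prnp, the copper-binding prion protein, was the highest at 1.66-fold. Among 15 iron genes 2 were higher and 0 lower, and the median was 0.29. The higher share was near the 12.8% found over the 14153 genes measured, where 9.1% were lower. The 2 were the ferritin chains that store iron. Fth1 was at 2.83-fold (2.79 to 2.87), with 6068 and 11825 TPM, and Ftl1 at 3.12-fold (2.99 to 3.25). Ferritin genes have processed copies, and whether reads were divided with these was not tested. Hmox2, a heme oxygenase, was the lowest of the iron genes at 1.40-fold lower.

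Enzymes against oxidants, a role in which metallothioneins are also active, were mixed. Over the 14153 genes measured, 12.8% passed the 2-fold rule upward and 9.1% downward. Of 25 superoxide, peroxide and thiol enzymes 5 were higher and 0 lower, and the median was 0.23. Prdx6, a peroxiredoxin abundant in astrocytes, was the highest at 3.16-fold (3.04 to 3.29), and Gpx4, which reduces lipid peroxides, was at 2.84-fold (2.72 to 2.97). Txn2, Cat and Prdx1 were at 2.16-fold, 2.10-fold and 2.07-fold. Sod1, the copper and zinc superoxide dismutase, had 3083 and 2536 counts and a ratio of 1.28-fold, and its log2 ratio of 0.36 became -0.13 under library totals. Glrx, a glutaredoxin, was 1.34-fold lower. Of 17 genes of glutathione synthesis and transfer 4 were higher and 0 lower, and the median was 0.65. Gstm1, a glutathione transferase, was the highest at 4.24-fold (4.09 to 4.41). That was above all 3 metallothioneins. The interval of Gstm1 overlapped those of Mt1 and Mt2, and the differences in ratio were not examined. Gstk1 and Nqo1 were at 3.87-fold and 3.80-fold, the latter from 53 and 129 counts (2.74 to 5.34), Gstm5 was at 3.14-fold, and Gsto1 was 1.35-fold lower. Gstm genes are related in sequence, and whether reads were divided among them was not tested.

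Among genes with a mean TPM within 2-fold, those whose log2 ratio over the 2 libraries was nearest to that of Mt1 were Gstm1 (4.24-fold), Slc1a2 (4.33-fold), Rplp1 (3.86-fold), Dbi (3.86-fold) and Mt3 itself. For Mt2 they were Scg2 (3.97-fold), Grin1, Dbi, Rplp0 (3.85-fold) and Tubb2b (4.02-fold). For Mt3 they were Dbi, Grin1, App and Pea15a (both 3.71-fold) and Rpsa (3.71-fold). Dbi, the acyl-CoA-binding protein, stood in all 3 groups, with 791 TPM in homogenate RNA and 2101 TPM after enrichment. With a single ratio per gene, likeness means only that the ratios were close. The groups hold genes typical of astrocytes, of neurons and of ribosomes.

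The 4 metallothionein genes lie next to each other, in the order Mt4, Mt3, Mt2, Mt1 on the plus strand. Relative to the start of Mt1, Mt3 starts at -26.5 kb and Mt2 at -6.47 kb. Among measured genes within 150 kb of the cluster, the closest were Nup93, a nuclear pore protein 34.3 kb away, and Bbs2, a protein of the ciliary BBSome 38.4 kb away. The ratio of Nup93, from 439 and 237 counts, was 1.19-fold lower (1.01 to 1.40). That of Bbs2, from 685 and 215 counts, was 2.04-fold lower (1.75 to 2.39). Ogfod1, an oxygenase, was 1.18-fold lower and Nudt21, an mRNA cleavage factor, 1.23-fold higher, though its log2 ratio of 0.30 became -0.19 under library totals. None of these 4 neighbours had a ratio as high as the metallothioneins, and 98.5% of all measured genes also lay below Mt3. Slc12a3, with 2 counts in each library, and Mir138-2, with 0, were below the filter.

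**Figure D5:**
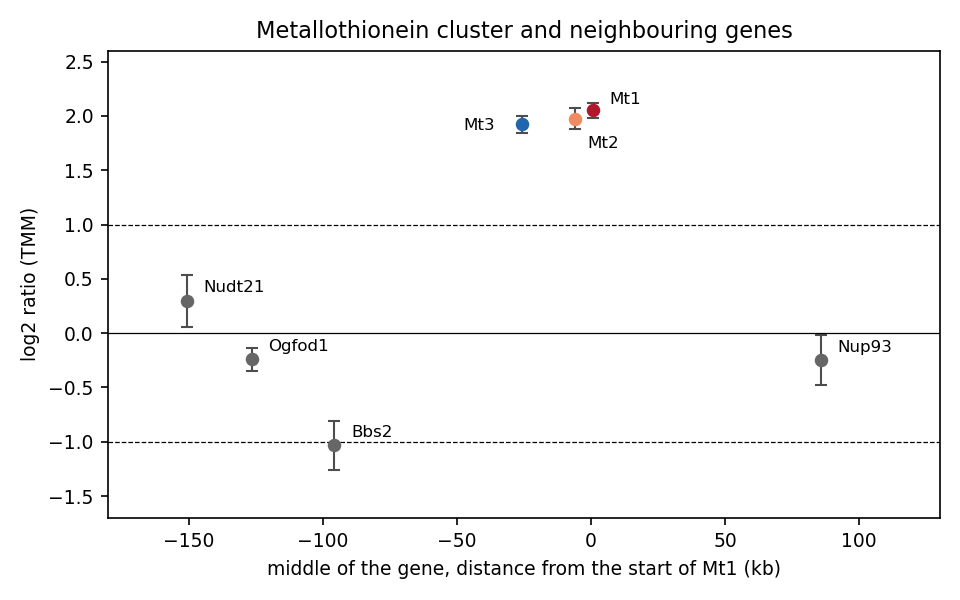
Log2 ratio, synaptosome fraction over homogenate, with 95% counting intervals, of the metallothioneins and 4 measured genes within 150 kb of the cluster, against the distance of each gene's middle from the start of Mt1 in kb; dashed lines mark 2-fold. Mt1, Mt2 and Mt3 lie together at 1.92 to 2.05, and the 4 neighbours range from -1.03 for Bbs2 to 0.30 for Nudt21.

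The sequences just before the starts of the 3 genes are given here, from RefSeq on GRCm38.p6 (all 3 symbols matched). Each run is the 250 bases before the annotated start on the plus strand. Capitals mark the core of the metal response element, the site of Mtf1, searched as TGCACNC or TGCGCNC on both strands, so that a match on the minus strand appears as its reverse complement.
Mt1 upstream (chr8:94178839-94179088): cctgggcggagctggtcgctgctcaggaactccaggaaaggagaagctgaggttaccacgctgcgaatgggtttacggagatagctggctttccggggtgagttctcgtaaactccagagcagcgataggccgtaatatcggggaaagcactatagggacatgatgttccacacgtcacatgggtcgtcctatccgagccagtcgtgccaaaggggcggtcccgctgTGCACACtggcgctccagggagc
Mt2 upstream (chr8:94172368-94172617): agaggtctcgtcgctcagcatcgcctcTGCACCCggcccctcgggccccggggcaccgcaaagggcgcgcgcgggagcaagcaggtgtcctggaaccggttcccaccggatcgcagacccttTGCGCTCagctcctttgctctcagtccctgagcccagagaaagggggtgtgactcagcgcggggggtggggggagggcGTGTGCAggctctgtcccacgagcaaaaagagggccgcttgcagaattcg
Mt3 upstream (chr8:94152357-94152606): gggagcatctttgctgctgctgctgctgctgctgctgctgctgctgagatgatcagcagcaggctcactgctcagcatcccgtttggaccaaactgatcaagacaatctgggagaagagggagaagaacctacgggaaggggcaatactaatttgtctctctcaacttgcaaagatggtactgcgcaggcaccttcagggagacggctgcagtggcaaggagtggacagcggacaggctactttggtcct

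In the window searched, 250 bases before to 50 after the start, Mt1 had 3 matches, Mt2 4 and Mt3 1. Matches that lay wholly before the annotated start numbered 1 for Mt1, 3 for Mt2 and 0 for Mt3. Of 32851 promoter windows of the same length in the table, 25.7% held at least 1 match, 1.97% at least 3 and 0.517% at least 4, with a mean of 0.355. GC content was 60.7% in the window of Mt1, 67.7% in that of Mt2 and 56.0% in that of Mt3. The window of Slc30a1 held 2. A match is only a match of letters, and the windows depend on the annotated start. That start is 94179089 for Mt1 and 94172618 for Mt2 in the files, and 94179082 and 94172664 in GENCODE M21. The coding sequences begin at 94179311 for Mt1, 94172848 for Mt2 and 94152800 for Mt3. The windows end before that, at 94179138, 94172667 and 94152656, so bases in between were not searched. The start used in brain was not examined, and the counts of matches hold only for the annotated starts. Whether the matches bear on the ratios between the 2 libraries was not tested.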

How the data were processed

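RNA from 1 homogenate library and 1 synaptosome library was analysed, with fractions taken from the labels. The authors deposited expected counts (estimates that need not be whole), TPM and FPKM per transcript, with transcript lengths. They also deposited a table of 1 signal value per gene, which was the summed count times 0.7983 (homogenate) or 1.253 (synaptosome). FPKM as deposited was not used. RSEM 1.2.5, TopHat 1.3.3, edgeR 3.0.6 and FastQC were used with build mm10, per the submitters' processing notes. The sources used here do not say what each did.

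Expected counts were summed per gene symbol and rounded. TMM factors over all genes (edgeR 4.0.16, R 4.3.3) were 1.186 and 0.843. Genes that averaged 1 CPM or more were kept. Ratio intervals were exact Clopper-Pearson at 95%, and differences between genes used the exact conditional interval of the odds ratio. The calculations (Python 3.11.15, scipy 1.17.1) were tested on simulated data. A count of 0 allows 3 counts.

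The 3 genes were chosen by name, and they, the 18 lists and the rules were chosen with earlier results of these data known. Named were the 4 family genes, genes within 150 kb, role genes, in each list the 2 most abundant and the highest and lowest members, and for each metallothionein the 5 genes of nearest ratio with mean TPM within 2-fold. Other genes were named after their values were seen. A result on 1 gene near the cluster is not reported here. Lrp2, a role gene, had 19 and 9 counts and was not measured. Sequences came from GENCODE M21 and RefSeq tables. Both are on GRCm38, which mm10 denotes. The RefSeq starts of the 3 genes matched the files.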

Additional observations from a re-analysis of the deposited data

How the results depend on the processing

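All 3 metallothioneins stayed higher by 2-fold or more under the other 5 scalings tried. With library totals the log2 ratios of Mt1, Mt2 and Mt3 were 1.56, 1.48 and 1.43. With TMM over the genes of mean TPM of at least 100 they were 1.61, 1.53 and 1.48. With TPM they were 1.51, 1.43 and 1.39. With median-of-ratios factors (RLE), the authors' deposited signal and counts not rounded, each lay within its main interval, as did Mt1 and Mt2 summed (2.03). A scaling by library cancels out of the differences between the 3 genes. Over all genes, 1807 were higher and 1288 lower. With library totals these were 636 and 3629, with TMM over abundant genes 708 and 3317, with TPM 568 and 3917, and at 1.5-fold 3391 and 2954. Among the 10107 genes that averaged 10 CPM or more, 1408 were higher and 578 lower.

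No paired analysis was possible because each fraction had 1 library. For the same reason no library was left out. The spread between animals or preparations is unknown. The intervals cover counting error of estimated counts only.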

Other observations

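The deposited gene table also lists annotation terms, and the terms of the 3 genes were examined after their ratios were known. Mt3 carried 60 terms, Mt1 13 and Mt2 9. All 3 carried zinc ion homeostasis, a term held by 9 measured genes, of which 4 were at least 2-fold higher and 0 lower. The 4 were Mt1, Mt2, Mt3 and the zinc importer Slc39a6. The term zinc ion binding, also carried by all 3, was held by 1152 measured genes, of which 104 (9.03%) were higher and 114 lower, and the median log2 ratio was -0.16. Mt3 alone of the 3 carried the term synaptic vesicle. Of 92 measured genes with that term, 19 (20.7%), Mt3 among them, were higher and 5 lower, and the median was 0.38. Over all 14153 genes measured, 12.8% were higher and 9.1% lower, and the median was -0.01.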
